A study of Mus musculus with 12 samples.

Results

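Of the 4740 genomic regions bound by BMAL1 in mouse embryonic fibroblasts, 389 lay at bidirectional promoters. A region was taken when its nearest edge was within 1 kb of the starts of 2 genes on opposite strands and those starts were at most 1 kb apart, each start being the first base of the gene's outermost exon in the mm10 annotation used by the authors. These 389 regions, called members in places below, were 8.21% of all regions and 13.2% of the 2944 regions with any gene start within 1 kb. The other 2555 of those 2944 are called single-promoter regions here, and 1796 regions had no start within 1 kb. The cells were of the 129/sv background, with per1 -/-, per2 -/-, nr1d1 -/- and nr1d2 -/- as the labelled genotype and a PER2-ER transgene, all of which every group carried. PER2 acts as a clock repressor, and ER in such fusions usually stands for the estrogen receptor, of which 4-hydroxytamoxifen (4-OHT) is a ligand. Cells received 1 µM 4-OHT for 4 h, or for the same time its solvent, 0.1% ethanol (EtOH), and mRNA-seq, BMAL1 ChIP-seq and ChIP input each had 2 libraries with 4-OHT and 2 with EtOH. The promoter that drives the transgene and the number of clones are not stated in the labels, and cells that lack the transgene were not analysed here.

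A bidirectional promoter serves 2 neighbouring genes that are transcribed away from each other, so a factor bound between them is close to both starts. Such promoters are known to be rich in G, C and CpG, often to lack a TATA box, and to serve many housekeeping genes. BMAL1 pairs with CLOCK, binds the E-box motif CACGTG and activates clock genes, and PER proteins repress that activity. The question put to these regions was how the BMAL1 signal at shared promoters, and the mRNA of both genes, differed after 4 h of 4-OHT.

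Sequence is given for 10 gene pairs of the 389 regions, as examples of what lies at and between the paired starts. Pairs named for strong BMAL1 signal, a large fall or a called mRNA change were printed only where an E-box was found. Pairs with a small fall could be printed without one. Whether these stretches hold an E-box was therefore set by the choice, and they allow no contrast between the groups. All stretches come from RefSeq promoter windows of GRCm38.p6, on the plus strand from 5′ to 3′, and reach at most 30 bases into either gene. Capitals mark the E-box CACGTG, which reads the same on both strands. The first 5 pairs are among the 10 regions with the highest BMAL1 signal with EtOH.
Rmnd1/1700052N19Rik (chr10:4432350-4432461): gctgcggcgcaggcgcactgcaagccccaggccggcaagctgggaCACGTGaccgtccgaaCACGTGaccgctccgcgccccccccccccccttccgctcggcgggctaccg
AW549877/A630020A06 (chr15:3995722-3995800): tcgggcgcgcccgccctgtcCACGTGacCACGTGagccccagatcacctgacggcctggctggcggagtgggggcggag
Rnft2/2410131K14Rik (chr5:118244997-118245257): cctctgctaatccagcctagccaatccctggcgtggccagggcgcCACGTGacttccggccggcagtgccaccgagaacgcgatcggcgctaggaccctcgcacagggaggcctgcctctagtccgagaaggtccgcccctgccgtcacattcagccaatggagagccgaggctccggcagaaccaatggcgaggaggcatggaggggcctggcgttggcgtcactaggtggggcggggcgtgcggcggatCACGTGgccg
Slc35a5/Atg3 (chr16:45158690-45158808): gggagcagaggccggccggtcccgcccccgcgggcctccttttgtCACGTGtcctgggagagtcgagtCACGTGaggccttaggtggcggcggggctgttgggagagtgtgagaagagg
Slc7a5/BC048644 (chr8:121907801-121907863): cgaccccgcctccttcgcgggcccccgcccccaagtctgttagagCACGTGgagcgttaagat
The next 2 pairs are shown for a large fall of BMAL1 signal (Utp18/Mbtd1) and for a called change of mRNA (Rps28/Ndufa7).
Utp18/Mbtd1 (chr11:93885736-93885831): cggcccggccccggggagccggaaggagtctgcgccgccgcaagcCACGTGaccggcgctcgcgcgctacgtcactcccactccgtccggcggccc
Rps28/Ndufa7 (chr17:33824468-33824550): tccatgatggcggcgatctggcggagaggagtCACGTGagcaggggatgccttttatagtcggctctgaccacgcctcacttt
The last 3 pairs are among the 5 with the smallest called fall at regions whose EtOH signal was above the median of all regions, and no E-box stands in the stretch read; the region of Klhdc3/Mea1, also among those 5, does hold 1.
Ccni/2010109A12Rik (chr5:93206465-93206548): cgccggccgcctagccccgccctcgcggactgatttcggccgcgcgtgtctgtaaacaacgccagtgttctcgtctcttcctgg
Ighmbp2/Mrpl21 (chr19:3282980-3283072): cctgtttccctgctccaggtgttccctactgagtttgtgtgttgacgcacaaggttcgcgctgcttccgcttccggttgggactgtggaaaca
Ranbp1/Trmt2a (chr16:18248670-18248913): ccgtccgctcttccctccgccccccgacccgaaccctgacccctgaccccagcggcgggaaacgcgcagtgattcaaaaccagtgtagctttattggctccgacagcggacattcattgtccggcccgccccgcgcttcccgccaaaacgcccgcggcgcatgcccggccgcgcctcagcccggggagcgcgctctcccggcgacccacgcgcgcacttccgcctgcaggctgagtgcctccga

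Of these stretches, 4 held 2 E-boxes. The E-boxes of AW549877/A630020A06 were separated by 2 bases and those of Rmnd1/1700052N19Rik by 10 bases, and in both pairs they lay near the start of the minus-strand gene. At Slc35a5/Atg3 the E-boxes were 17 bases apart, with the first 62 bp from the start of Slc35a5 and the last ending 66 bp before the start of Atg3. At Rnft2/2410131K14Rik the E-boxes were 200 bases apart, each close to the start of 1 gene.

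The E-box was also counted over all promoters that could be read. Windows of 300 bases, 250 before and 50 after a gene's start, were found for 563 of the 697 genes paired at these regions, and 487 of them began within 50 bp of the start used here. CACGTG stood in 27.2% of the partner genes' windows, against 4.10% of 1585 windows of genes in bidirectional pairs without a BMAL1 region, 30.04% of 1794 windows of genes at single-promoter regions and 8.22% of all 17644 windows. Both genes of a pair often share part of their windows, so these are descriptions of windows that are not independent. Of the 283 regions with windows for both genes, 107 (37.8%) had an E-box in at least 1 of them. That share was 25 of 39 among the 50 regions with the highest EtOH signal (64.1%) and 9 of 39 among the 50 with the lowest (23.1%).

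Between the starts themselves the contrast had the same direction. Among head-to-head pairs with starts at least 20 bp apart and the whole gap covered by windows, 29 of 178 pairs at a BMAL1 region (16.3%) held CACGTG in the gap, against 12 of 554 pairs without one (2.17%). The gaps were of like length, with medians of 147 bp and 136 bp. In the 74 regions whose own sequence was covered in full, 21 (28.4%) held CACGTG, against 84 of 305 single-promoter regions (27.5%). No match in the other 53 says only that these letters are not in the region.

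Of the other promoter motifs, the ETS motif was more frequent in partner windows than at single-promoter regions, while the TATA box, the CCAAT box and an E-box variant had like shares in both. The ETS motif CCGGAAG, searched on both strands like all motifs here, stood in 25.4% of partner windows, close to the 27.8% of pairs without a BMAL1 region and above the 16.4% of genes at single-promoter regions and the 12.2% of all windows. GATGGCG, the core bound by YY1, stood in 9.95% of partner windows, 8.45% of windows of pairs without a region, 6.91% at single-promoter regions and 4.59% of all. GCATGCG, part of the NRF1 motif, stood in 8.17% of partner windows, 6.69% of windows of pairs without a region, 7.25% at single-promoter regions and 4.65% of all. TATAAA was found in 5.33% of partner windows, 5.36% of windows of pairs without a region, 5.96% at single-promoter regions and 13.03% of all. CCAAT stood in 36.2% of partner windows, 41.9% of windows of pairs without a region, 37.7% at single-promoter regions and 39.0% of all. The E-box variant CACGTT stood in 6.93% of partner windows, 5.99% of windows of pairs without a region, 6.97% at single-promoter regions and 4.84% of all. The partner windows had a median of 65.7% G and C and a CpG content of 0.904 of that expected from their bases. These medians were 62.0% and 0.825 in pairs without a region, 64.3% and 0.828 at single-promoter regions and 56.7% and 0.592 over all windows.

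**Figure D1:**
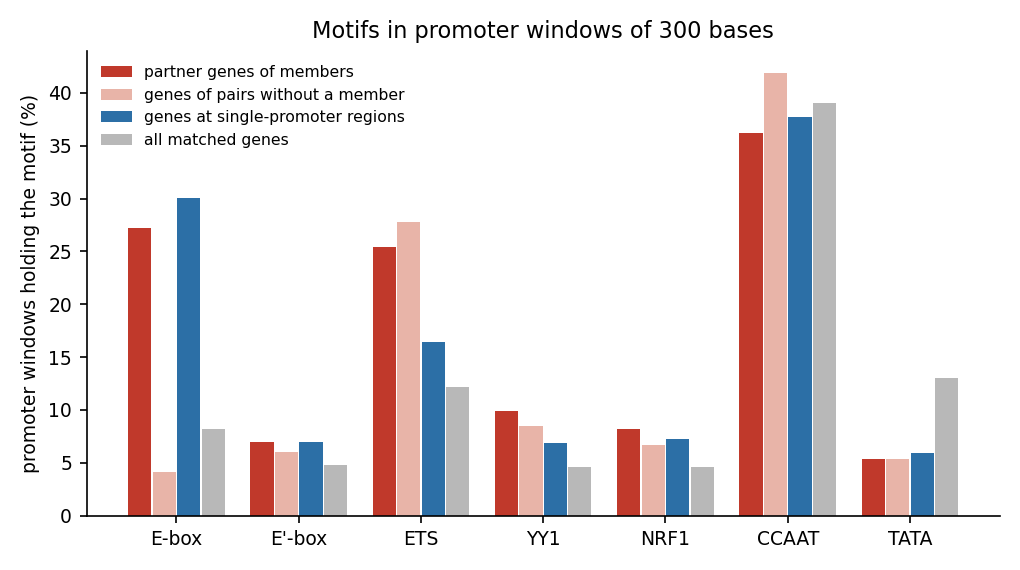
Share of 300-base RefSeq promoter windows that hold each motif on either strand (y axis, percent), for the 563 partner genes of BMAL1 regions, 1585 genes of bidirectional pairs without a region, 1794 genes at single-promoter regions and all 17644 matched genes. The E-box bar of partner genes (27.2%) is near that of single-promoter genes (30.04%), and the ETS bar (25.4%) is near that of pairs without a region (27.8%).

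The 389 regions belonged to 353 distinct gene pairs with 697 genes. In 289 pairs the genes were head to head with a median gap of 194 bp, and in 64 pairs the starts overlapped, by a median of 284.5 bp. Most regions (382) touched 1 pair and 7 touched more, up to 4, while 43 pairs had 2 or more regions. The regions came from 379 called peaks, and 20 of them share a called peak with another. Their length was 4 to 1655 bp with a median of 249 bp, and 7 were shorter than 50 bp. Both starts lay inside the region in 77 cases (19.8%), 1 start in 162 and no start in 150. The centre of the region was between the starts in 142 cases, to the left of both in 140 and to the right of both in 107.

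In the annotation, 1340 gene pairs met the same distance rule, and 353 of them (26.3%) had a BMAL1 region. Of 20634 genes outside such pairs, 2246 (10.9%) had a region within 1 kb of their start. Among genes with enough mRNA counts to test, the shares were 29.1% of 2262 genes in pairs and 19.9% of 10935 genes outside pairs. A gene in a pair can be counted through a region that lies at its neighbour's start, so these shares are not of equal reach.

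The BMAL1 libraries rested on 13740997 to 20712373 reads with 4-OHT and 13502201 to 17635022 with EtOH, the inputs on 12481308 to 33454366 reads, and the mRNA libraries on 60267540 to 89695667 counted reads. Reads in the 4740 regions were 0.689% and 0.749% of the total with 4-OHT, against 2.63% and 2.46% with EtOH. Fibroblast markers summed to 28482 to 30360 CPM (read counts scaled to a common library size) with 4-OHT and 27884 to 30154 CPM with EtOH, with 8 of 9 at 1 CPM or more, while markers of myeloid, endothelial, epithelial and muscle cells summed to at most 30.9 CPM. The 2 inputs of each treatment differed by no more than counting noise in the regions, so their levels are given pooled, as 1 value a treatment. Whether replicates are separate cultures is not stated in the labels, so the p-values reflect the spread between libraries alone, and that spread may be technical. Transcripts of all 4 genes labelled as knocked out were still counted in every mRNA library, so these counts do not check the labels. Per1 had 36.7 to 45.4 CPM and Per2 550.4 to 608.9 CPM over the 4 libraries, Nr1d1 16.4 and 17.5 CPM with 4-OHT against 49.2 and 56.0 CPM with EtOH, and Nr1d2 39.4 and 35.3 CPM with 4-OHT against 83.4 and 92.6 CPM with EtOH. The regions were called on EtOH-treated cells, so EtOH signal chose them, and their presence with EtOH is no finding. A choice by EtOH signal also favours a lower value with 4-OHT, and its part in the fall was not tested.

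BMAL1 signal at bidirectional promoters was about 3-fold lower with 4-OHT. Signal is given as reads in the region per 10000000 reads of the library (RP10M), not divided by length. The median over the 389 regions was 8.01 and 9.17 RP10M in the 4-OHT libraries, against 24.4 and 23.2 RP10M in the EtOH libraries. The medians of both 4-OHT libraries were below those of both EtOH libraries. In the pooled inputs the medians were 2.39 RP10M with 4-OHT and 2.14 RP10M with EtOH. The median log2 change was -1.62 (quartiles -1.95 and -1.28), a fold of 3.07. Signal was lower in the 4-OHT libraries by the fitted value at 387 of the 389 regions.

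**Figure D2:**
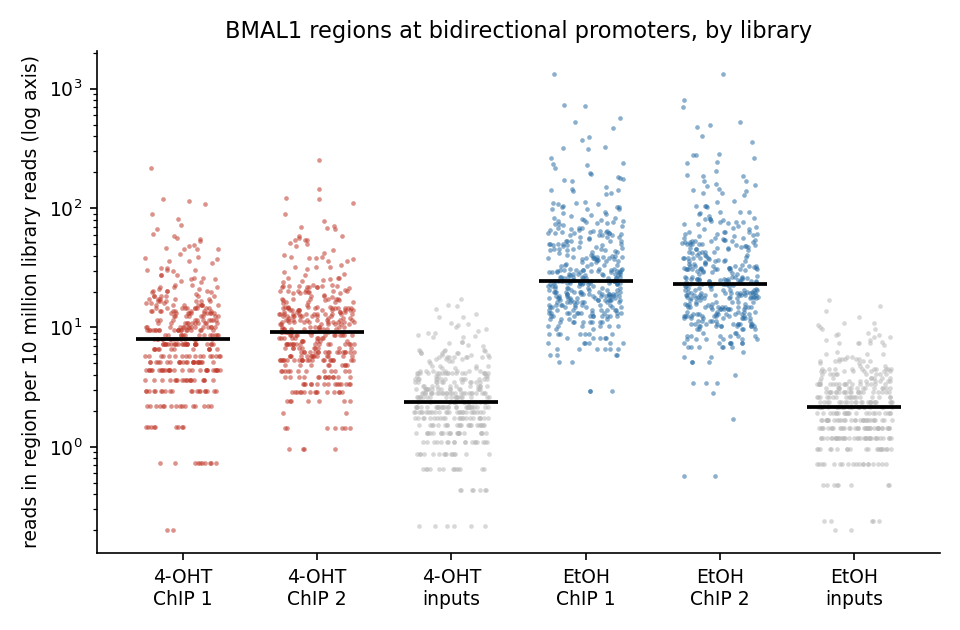
BMAL1 and input signal at each of the 389 regions (points; y axis, reads per 10000000 library reads, log scale) in each ChIP library and in the pooled inputs, with the median as a bar. Medians were 8.01 and 9.17 in the 4-OHT ChIP libraries, 24.4 and 23.2 in the EtOH ChIP libraries and 2.39 and 2.14 in the 4-OHT and EtOH inputs; values under 0.2 are drawn at 0.2.

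With edgeR's quasi-likelihood test over all 4740 regions, scaled by library totals, 363 of the 389 regions (93.3%) were called lower at a Benjamini-Hochberg adjusted p below 0.05, against 93.8% of all regions. The members' share is near that of the whole list. No region was called higher, and none of the members had a higher value at an unadjusted p below 0.05. Sites bound only with 4-OHT are not in a list called on EtOH-treated cells, so the lack of gains holds for these regions alone. DESeq2 with the same totals also called 0 higher and 269 lower, against 70.2% of all regions. In 379 regions both 4-OHT libraries were below both EtOH libraries, against 98.0% of all regions. The 2 regions with a fitted value above 0, chosen here after their values were seen, were a 35 bp region at Hist1h2ak/Hist1h2bn and a 4 bp region at E130307A14Rik/Rev3l. An exact permutation test on the median over members cannot pass the threshold with 2 libraries a group, and gave the smallest two-sided p it allows (0.33).

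The call rests on scaling by library totals. Scaling by trimmed-mean (TMM) factors over the regions, which sets the change of a typical region to about 0, moved the median of all regions by 1.68 on the log2 scale. Under it 19 of the 389 regions were called lower and 5 higher, against 4.81% and 1.39% of all regions. The 5 were at Ranbp1/Trmt2a, Pcid2/Cul4a, Sirt6/Ankrd24 and, chosen after their values were seen, Ybey/Mcm3ap and Hist1h2ak/Hist1h2bn. Without EtOH replicate 1, 301 of the 389 regions (77.4%) were called lower, against 79.2% of all regions, with a median log2 change of -1.53.

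The median fall was of like size at bidirectional and single promoters. The median log2 change was -1.62 at bidirectional promoters and -1.65 at single-promoter regions, where 2368 of 2555 (92.7%) were called lower and the medians were 8.01 and 8.69 RP10M with 4-OHT against 25.2 and 22.7 RP10M with EtOH. Over the 4 libraries, the members' median log2 signal minus that of single-promoter regions was 0.00 and 0.08 with 4-OHT and -0.04 and 0.04 with EtOH, a difference of 0.04 (exact permutation test, two-sided p = 0.67; the smallest possible is 0.33). The members' share of all reads in regions was 7.42% with 4-OHT and 7.89% with EtOH. Signal per kb of region, as a median with EtOH, was 105.1 RP10M at bidirectional promoters and 107.8 RP10M at single-promoter regions. The authors' deposited fold enrichment over background had a median of 8.40 at bidirectional and 8.11 at single promoters, and the deposited −log10 q medians of 11.8 and 11.6.

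The fall was larger at regions with more signal. To keep the ranking apart from the change, regions were split into 3 ranks of like size by EtOH replicate 1 and the change was taken against EtOH replicate 2. The median log2 change was -1.32 in the lowest, -1.46 in the middle and -1.86 in the highest rank, and at single-promoter regions -1.32, -1.45 and -1.87. Ranked by EtOH replicate 2 and set against replicate 1, the ranks stood at -1.63, -1.56 and -1.98, so the lowest and middle ranks changed order. Input makes up more of a weak region's reads. With pooled input subtracted from the summed signal of each rank, the log2 ratios were -1.69, -1.84 and -2.27 in the first ranking and -2.01, -1.95 and -2.36 in the second. Across all members the SD of the log2 change was 0.49. In all, 86 regions were at least 4-fold lower and 46 were less than 2-fold lower.

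**Figure D3:**
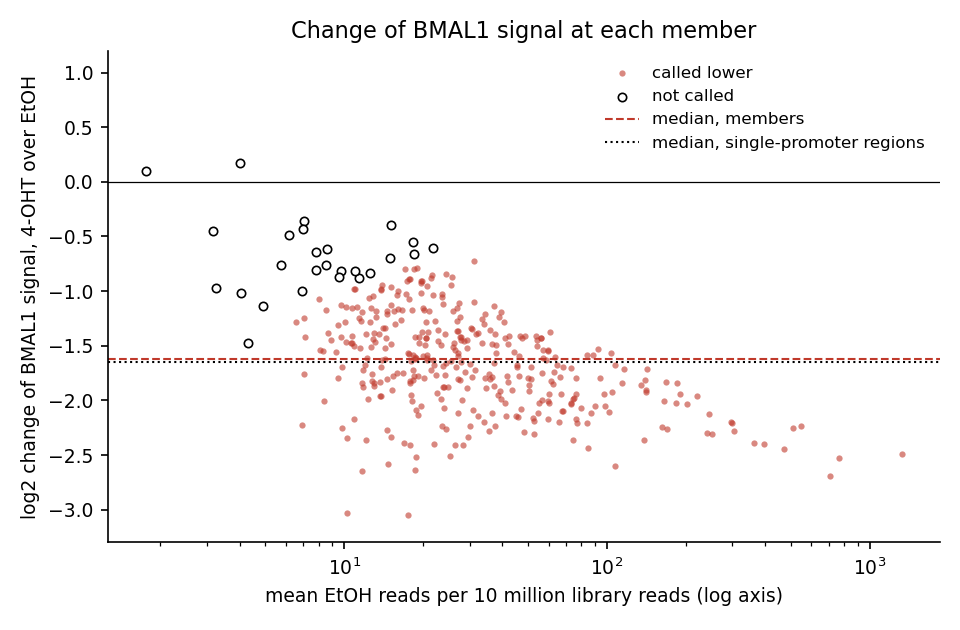
Log2 change of BMAL1 signal, 4-OHT over EtOH, at each of the 389 regions scaled by library totals (y axis), against mean EtOH signal (x axis, reads per 10000000 library reads, log scale), with called regions filled and the 26 not called open. The dashed and dotted lines are the medians of bidirectional (-1.62) and single-promoter regions (-1.65); both axes use EtOH signal, so part of any slope is shared error.

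Most regions kept signal above input with 4-OHT. In a fit over the 8 ChIP and input libraries, which takes the 2 inputs of each treatment as separate libraries, 322 of the 389 regions (82.8%) were above input with 4-OHT, against 80.6% of all regions, at a median of 3.65-fold. With EtOH 388 were above input, against 99.5% of all regions, at a median of 11.96-fold. The exception, chosen after its values were seen, was a 59 bp region at Iqcg/Rpl35a. Input itself was called different between treatments at 0 of the 389 regions by edgeR, with 21 (5.398%) at an unadjusted p below 0.05, against 4.60% of all regions. That test also takes the 2 inputs of each treatment as separate libraries, and counted as 1 sample a treatment they allow no test. With the inputs of each treatment summed to 1 library, 325 regions were above input with 4-OHT and 389 with EtOH. DESeq2 with library totals put fewer regions above input, 216 with 4-OHT and 382 with EtOH. A fit that subtracts the input change called 198 regions lower, against 50.5% of all regions, and 193 with summed inputs.

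The order of the regions was largely kept. Across the 389 regions Spearman's rho was 0.83 between the 4-OHT libraries, 0.94 between the EtOH libraries, and 0.84 and 0.89 between 4-OHT and EtOH replicates 1 and 2; the regions share their length and their mappability in every library, and the values are a description. Of the 10 regions with the highest EtOH signal, 9 were also in the top 10 with 4-OHT. The top 10 held 19.8% of the members' summed signal with 4-OHT and 28.3% with EtOH.

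The strongest region lay at the start of Bhlhe40 (chr6:108659175-108660829), which encodes a transcriptional repressor of the clock, and whose start overlaps that of the uncharacterised 0610040F04Rik. It had 216.9 and 253.5 RP10M with 4-OHT, against 1338 and 1316 RP10M with EtOH. The groups were far apart, and input was 15.5 RP10M with 4-OHT and 16.9 RP10M with EtOH. The log2 change was -2.49 ± 0.10 (SE; edgeR, adjusted p = 6.25e-122), and the remaining signal was 15.4-fold above input with 4-OHT, against 78.2-fold with EtOH. A second, weaker region 954 bp from the Bhlhe40 start had 5.09 and 8.21 RP10M with 4-OHT, against 20.7 and 11.3 RP10M with EtOH.

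Rmnd1, which acts in mitochondrial translation, shares its promoter with 1700052N19Rik, and the region there (chr10:4432094-4432777) covers both starts and the paired E-boxes shown above. Its signal was 119.4 and 144.4 RP10M with 4-OHT, against 726.5 and 808.6 RP10M with EtOH. The fall was 5.77-fold (log2 change -2.53 ± 0.11, SE). Rmnd1 mRNA was counted at 0 in both 4-OHT libraries and at 0 and 0.050 CPM with EtOH, while 1700052N19Rik had 42.1 and 45.1 CPM with 4-OHT, against 46.6 and 46.4 CPM with EtOH. Polr2l encodes a subunit common to the nuclear RNA polymerases and Tspan4 a tetraspanin. Their strongest region (chr7:141476000-141476883) lay 764 bp inside Tspan4 and had 109.2 and 110.1 RP10M with 4-OHT, against 709.5 and 707.7 RP10M with EtOH. This 6.46-fold fall was the largest among the 10 strongest regions. A second region, which covers the Tspan4 start itself, had 16.01 and 17.4 RP10M with 4-OHT, against 39.3 and 35.2 RP10M with EtOH, a 2.20-fold fall.

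The other 7 of the 10 strongest regions fell by 4.62- to 5.46-fold, and in each both 4-OHT libraries were far below both EtOH libraries. AW549877/A630020A06 had 114.3 and 118.3 RP10M with 4-OHT, against 569.5 and 529.6 RP10M with EtOH. Brd2, a reader of acetylated histones, and H2-DMa, which helps load peptides on MHC class II, shared a region with 88.8 and 121.7 RP10M with 4-OHT, against 526.6 and 493.9 RP10M with EtOH. The region of Ncl, which encodes nucleolin, and C130036L24Rik had 81.5 and 89.8 RP10M with 4-OHT, against 465.1 and 475.8 RP10M with EtOH. No CACGTG was found in the covered sequence of the Brd2, Ncl and Banf1 regions (45.9%, 26.6% and 67.9% of their length), so these letters are missing only from the part read. Rnft2/2410131K14Rik had 72.0 and 77.7 RP10M with 4-OHT, against 394.0 and 400.3 RP10M with EtOH. Slc35a5 and Atg3, an enzyme that attaches LC3 proteins to lipid in autophagy, had 66.2 and 71.5 RP10M with 4-OHT, against 368.8 and 355.5 RP10M with EtOH. Both of these regions hold the pairs of E-boxes shown above. Slc7a5, a transporter of large neutral amino acids, and BC048644 had 54.6 and 68.6 RP10M with 4-OHT, against 326.6 and 281.3 RP10M with EtOH. Banf1, a DNA-bridging protein of the nuclear envelope, and Eif1ad had 61.1 and 67.1 RP10M with 4-OHT, against 320.7 and 277.3 RP10M with EtOH.

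**Figure D4:**
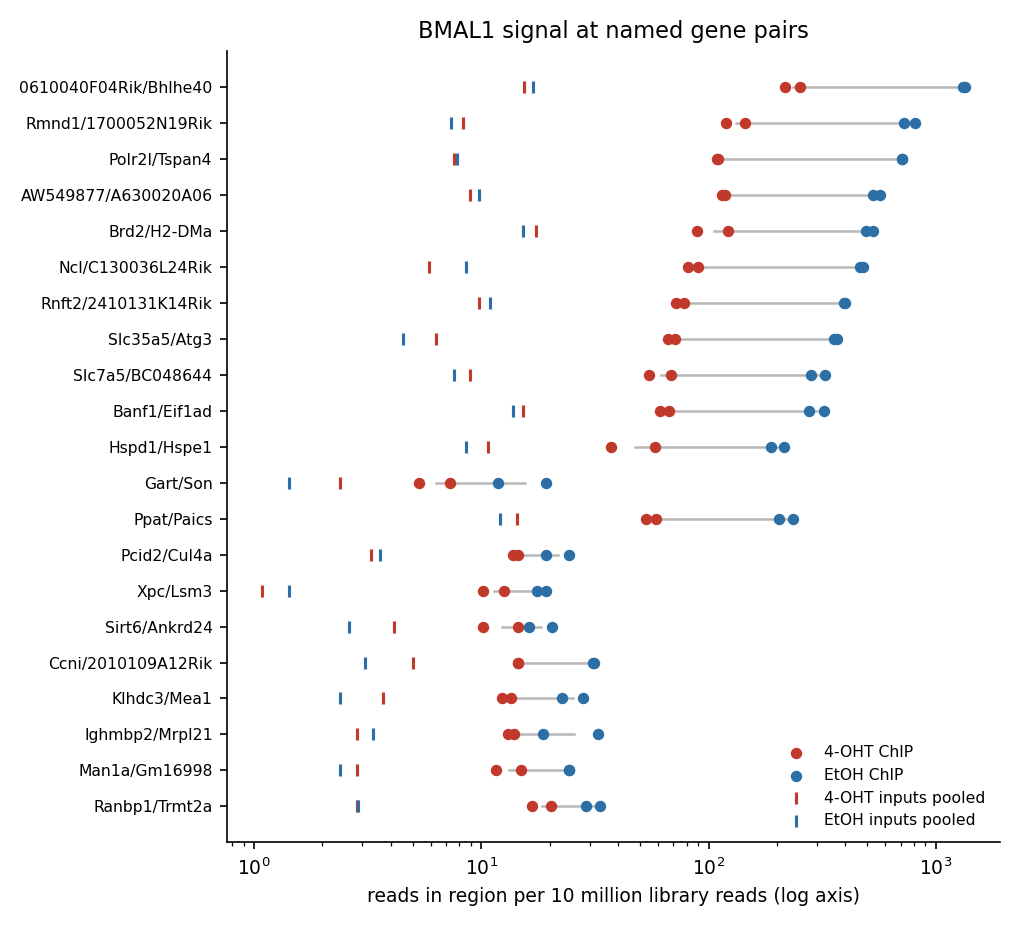
BMAL1 signal (x axis, reads per 10000000 library reads, log scale) at named gene pairs, with 1 red point per 4-OHT and 1 blue point per EtOH ChIP library, a grey line between the group means and ticks for the pooled inputs. From top to bottom are the 10 strongest regions, 3 textbook pairs, the 3 strongest regions not called lower and the 5 smallest called falls among regions above the median EtOH signal of all regions; at the 10 strongest the groups are 4.62- to 6.46-fold apart.

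Among regions called lower with EtOH signal above the median of all regions (23.7 RP10M), the 5 largest falls were at Polr2l/Tspan4, Utp18/Mbtd1, Rmnd1/1700052N19Rik, Tbc1d17/Akt1s1 and 0610040F04Rik/Bhlhe40. Utp18 acts in processing of ribosomal RNA and Mbtd1 reads methylated histones. Their region had 13.8 and 20.3 RP10M with 4-OHT, against 109.6 and 104.9 RP10M with EtOH, a 6.07-fold fall. Akt1s1, an inhibitor of mTORC1, and Tbc1d17 had a region 640 bp from the Akt1s1 start with 5.82 and 3.38 RP10M with 4-OHT, against 23.7 and 26.7 RP10M with EtOH. This 5.70-fold fall was not called in the input-subtracting fit (edgeR, adjusted p = 0.18).

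Within the same set, called lower and above the median EtOH signal of all regions, the 5 smallest falls were at Ranbp1/Trmt2a, Man1a/Gm16998, Ighmbp2/Mrpl21, Klhdc3/Mea1 and Ccni/2010109A12Rik. Ranbp1, which acts with the Ran GTPase in nuclear transport, and Trmt2a, a tRNA methyltransferase, had 16.7 and 20.3 RP10M with 4-OHT, against 33.3 and 28.9 RP10M with EtOH, with a log2 change of -0.72 ± 0.30 (SE; adjusted p = 0.017). The groups did not overlap, and the remaining signal was 6.45-fold above input with 4-OHT, against 10.6-fold with EtOH. Ccni (cyclin I) and 2010109A12Rik had 14.6 and 14.5 RP10M with 4-OHT, against 31.1 and 31.2 RP10M with EtOH. Klhdc3/Mea1 fell by 1.93-fold, Ighmbp2/Mrpl21 by 1.83-fold and Man1a/Gm16998 by 1.795-fold. Of these 5 regions the calls at Ighmbp2/Mrpl21 (adjusted p = 0.40), Man1a/Gm16998 (0.16) and Ranbp1/Trmt2a (0.33) were lost in the input-subtracting fit.

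The 26 regions not called lower were weak. Their median was 10.25 reads per library, against 28 reads at the called regions, and 24 of the 26 had a fitted value below 0. The 3 with the highest EtOH signal were at Pcid2/Cul4a, Xpc/Lsm3 and Sirt6/Ankrd24. The region at Pcid2 and Cul4a, a scaffold of ubiquitin ligases, had 13.8 and 14.5 RP10M with 4-OHT, against 24.4 and 19.3 RP10M with EtOH (log2 change -0.60 ± 0.33, SE; adjusted p = 0.067). The region at Xpc, a sensor of damaged DNA, and Lsm3 had 10.2 and 12.6 RP10M with 4-OHT, against 19.3 and 17.6 RP10M with EtOH (adjusted p = 0.063). The region at Sirt6, a histone deacetylase, had 10.2 and 14.5 RP10M with 4-OHT, against 16.3 and 20.4 RP10M with EtOH (adjusted p = 0.12). In all 3 the change missed the threshold, although both 4-OHT libraries were below both EtOH libraries, as in 98.0% of all regions.

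Within the 389 regions, those that held both starts were longer and stronger. The 77 such regions had a median length of 391 bp and medians of 14.6 and 17.4 RP10M with 4-OHT, against 59.2 and 51.0 RP10M with EtOH. The median log2 change was -1.87 in them, -1.601 in the 162 regions with 1 start inside and -1.54 in the 150 with none, and 97.4%, 94.4% and 90.0% were called lower. The 107 regions with an E-box in a partner's window had medians of 9.46 and 11.1 RP10M with 4-OHT, against 36.3 and 31.2 RP10M with EtOH, a median log2 change of -1.82 and 98.1% called lower. The 176 without one had 7.28 and 7.97 RP10M with 4-OHT, against 21.5 and 19.3 RP10M with EtOH, a median of -1.55 and 90.3% called lower. A long region is more likely to hold both starts, and RP10M is not divided by length. Per kb, the median EtOH signal was 135.2 RP10M with both starts inside, 102.6 with 1 and 103.55 with none. With and without an E-box it was 111.3 and 102.5 RP10M per kb, at median lengths of 293 and 220 bp. These groups differ in length and in EtOH signal, with which the change also moved. The part of length and signal level in the contrasts was not tested. Head-to-head pairs (318 regions, median -1.61) and pairs with overlapping starts (71 regions, -1.66) were close.

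Of a list of 42 clock genes and known targets of the clock, 3 were partners, namely Bhlhe40, Tspan4 and Mapk6. Only 4 genes of the list lay in any annotated bidirectional pair, so these 3 are 75% of them. Of all annotated pairs 26.3% had a BMAL1 region. The list holds known targets of the clock, so its choice favoured genes with a region. All 5 regions of these pairs were called lower, against 93.8% of all regions. All 5 stayed above input with 4-OHT, against 80.6% of all regions. Mapk6 encodes an atypical MAP kinase, and its region with 4933433G15Rik had 15.3 and 21.7 RP10M with 4-OHT, against 74.8 and 74.9 RP10M with EtOH. The groups did not overlap there, and the fall was 3.93-fold.

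Of gene pairs known from textbooks as bidirectional, 10 were searched, all of which met the distance rule, and 3 had a BMAL1 region. Hspd1 and Hspe1 encode the paired subunits of the mitochondrial chaperonin. Their region had 37.1 and 57.9 RP10M with 4-OHT, against 214.8 and 188.8 RP10M with EtOH, a 4.10-fold fall. Ppat and Paics encode enzymes of purine synthesis, and their region had 53.1 and 58.9 RP10M with 4-OHT, against 235.5 and 204.7 RP10M with EtOH, a 3.89-fold fall. The region at Gart, another purine enzyme, and Son was weaker, with 7.28 and 5.31 RP10M with 4-OHT, against 19.3 and 11.9 RP10M with EtOH. In all 3 both 4-OHT libraries were below both EtOH libraries, as in 98.0% of all regions. None of the 6 genes was called in mRNA, with log2 changes of -0.06 for Hspd1, -0.06 for Hspe1, 0.05 for Ppat, 0.02 for Paics, -0.01 for Gart and -0.10 for Son.

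The mRNA of the partner genes changed little. Of the 697 partner genes, 654 had enough counts to test, and 8 of these (1.22%) were called by edgeR over all 13216 tested genes, against 2.44% of all. Of the 8, 2 were higher, against 0.802% of all genes, and 6 were lower, against 1.63%. At an unadjusted p below 0.05 there were 45 partner genes (6.88%), against 10.1% of all genes. Their median log2 change was -0.01 and their median absolute log2 change 0.06, against 0.00 and 0.07 over all genes. Of 1608 tested genes in pairs without a region 11 (0.684%) were called, and of 2183 at single-promoter regions 73 (3.34%). No test of the difference between these shares was made.

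Few mRNA changes were called around regions with large or with small BMAL1 falls. Around the 86 regions with at least a 4-fold fall, 2 of 152 tested partner genes were called (1.32%), and around the 46 regions with less than a 2-fold fall, 2 of 81 (2.47%), against 2.44% of all genes. At an unadjusted p below 0.05 there were 12 of the 152 and 3 of the 81. The difference between these shares was not tested. Around the 36 regions above 100 RP10M with EtOH, 1 of 65 was called, which was Bhlhe40. At the 10 strongest regions the other partner genes stayed uncalled, among them Brd2 with 474.2 and 487.4 CPM with 4-OHT against 476.4 and 505.1 CPM with EtOH, and Ncl with 600.4 and 523.8 CPM with 4-OHT against 539.8 and 611.7 CPM with EtOH. In both genes the groups overlapped.

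Of the partner genes, 6 fell. Tiparp (chr3:65528447-65555518), an enzyme that adds single ADP-ribose units and a known target of the aryl hydrocarbon receptor, had 129.1 and 115.8 CPM with 4-OHT, against 313.9 and 319.3 CPM with EtOH. The groups were far apart, with a log2 change of -1.37 ± 0.07 (SE; edgeR, adjusted p = 1.20e-19). Its neighbour 4931440P22Rik was near the detection limit, with 0.617 and 0.719 CPM with 4-OHT, against 0.464 and 0.820 CPM with EtOH. The region of this pair covers the start of 4931440P22Rik and lies 785 bp from that of Tiparp, with 13.1 and 12.1 RP10M with 4-OHT, against 30.4 and 24.4 RP10M with EtOH.

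Rev3l (chr10:39732160-39875205), the catalytic subunit of the translesion DNA polymerase zeta, had 236.1 and 208.0 CPM with 4-OHT, against 358.5 and 377.3 CPM with EtOH (log2 change -0.73 ± 0.07, SE; adjusted p = 4.54e-11). E130307A14Rik, on the other strand, was not called, with 6.66 and 7.23 CPM with 4-OHT, against 8.25 and 7.21 CPM with EtOH. This pair had 3 regions. The region over the E130307A14Rik start had 2.91 and 5.31 RP10M with 4-OHT, against 19.3 and 18.1 RP10M with EtOH, and a region 623 bp from the Rev3l start had 13.8 and 7.72 RP10M with 4-OHT, against 22.2 and 17.0 RP10M with EtOH. Both were called lower, while the remaining region was only 4 bp long, had at most 2.96 RP10M in any library and was not called. In the input-subtracting fit of edgeR both calls were lost (adjusted p = 0.16 over the E130307A14Rik start and 0.068 at 623 bp). With DESeq2 on library totals the call at 623 bp was lost (adjusted p = 0.15).

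Errfi1, a feedback inhibitor of the EGF receptor, had 100.8 and 99.98 CPM with 4-OHT, against 137.7 and 136.0 CPM with EtOH (log2 change -0.45 ± 0.06, SE; adjusted p = 2.70e-06). Plekhg3 had 62.8 and 69.9 CPM with 4-OHT, against 91.0 and 86.3 CPM with EtOH (-0.42 ± 0.07; adjusted p = 3.72e-05). In both genes the groups did not overlap, and their neighbours 1700045H11Rik and Mir5135 were counted at 0 in every library. C230081A13Rik had 110.4 and 106.4 CPM with 4-OHT, against 130.9 and 135.0 CPM with EtOH (-0.29 ± 0.06; adjusted p = 0.0032). Rps28, a protein of the small ribosomal subunit, had 52.0 and 54.9 CPM with 4-OHT, against 65.9 and 60.6 CPM with EtOH (-0.24 ± 0.07; adjusted p = 0.049). Ribosomal protein genes have near-identical processed copies elsewhere in the genome, so the Rps28 count is uncertain. Its neighbour Ndufa7, a subunit of respiratory complex I, was not called, with 71.7 and 82.8 CPM with 4-OHT, against 83.8 and 68.3 CPM with EtOH. The BMAL1 regions of these 4 pairs had means of 12.8 to 31.6 RP10M with EtOH, against a median of 23.9 RP10M over members. All were called lower.

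The 2 genes that rose were Bhlhe40 and Nrep. Bhlhe40 had 113.4 and 120.9 CPM with 4-OHT, against 99.7 and 89.7 CPM with EtOH (log2 change 0.31 ± 0.07, SE; adjusted p = 0.0032). BMAL1 signal at its strong region was 5.61-fold lower. The uncharacterised 0610040F04Rik was at most 0.067 CPM in any library and could not be tested. Nrep had 175.9 and 169.3 CPM with 4-OHT, against 147.5 and 139.0 CPM with EtOH (0.27 ± 0.06; adjusted p = 0.0098). Its neighbour Gm10549 was at 0.416 and 0.354 CPM with 4-OHT, against 0.295 and 0.368 CPM with EtOH. In both genes that rose the groups did not overlap.

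The call at Bhlhe40 was lost without EtOH replicate 2, those at C230081A13Rik and Nrep without either EtOH replicate, and that at Rps28 with DESeq2 and without EtOH replicate 1 or 2 or 4-OHT replicate 1. Those at Tiparp, Rev3l, Errfi1 and Plekhg3 held under each replicate left out and with DESeq2.

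No pair had both genes called by edgeR or by DESeq2. Of the 353 pairs both genes were tested in 309, and in 1 pair of those, Bcl7c/Mir762, chosen after its values were seen, both genes had an unadjusted p below 0.05. Mir762 lies where the starts overlap by 279 bp. The 2 fitted changes had the same sign in 194 of the 309 pairs (62.8%), and Spearman's rho between them was 0.27; both genes of a pair share the same 4 libraries, so this is a description. Their levels were unlike. Per length, as FPKM with EtOH, the median fold between partners was 4.76, with 73 pairs within 2-fold and 93 over 10-fold. The higher partner had a median of 29.1 FPKM and the lower 6.94 FPKM. Partner genes as a whole had a median of 15.0 FPKM, against 20.3 FPKM for genes at single-promoter regions, 11.3 FPKM for genes of pairs without a region and 11.2 FPKM for all tested genes.

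Whether the genes of a pair changed unequally was tested as the log2 ratio of the plus-strand to the minus-strand gene, with limma over 1052 annotated pairs, a test added after the calls per gene had been seen. The ratio changed in 2 of the 309 pairs at BMAL1 regions, against 0.380% of the 1052 pairs. The ratio of Tiparp to 4931440P22Rik was 7.65 and 7.28 on the log2 scale with 4-OHT, against 9.32 and 8.56 with EtOH (difference -1.48 ± 0.26, SE; adjusted p = 6.85e-04). The ratio of Rev3l to E130307A14Rik was 5.14 and 4.84 with 4-OHT, against 5.44 and 5.70 with EtOH (-0.58 ± 0.12; adjusted p = 0.0029). In both pairs the groups did not overlap. That of Ndufa7 to Rps28 missed the threshold (difference 0.27; adjusted p = 0.062). These calls depend on letting the spread vary with the lower partner's level, and with a constant spread 0 pairs were called. The call at Tiparp was lost without EtOH replicate 1 (adjusted p = 0.16) and 4-OHT replicate 2 (0.078), and that at Rev3l without EtOH replicate 1 (0.086), EtOH replicate 2 (0.47) and 4-OHT replicate 2 (0.77).

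**Figure D5:**
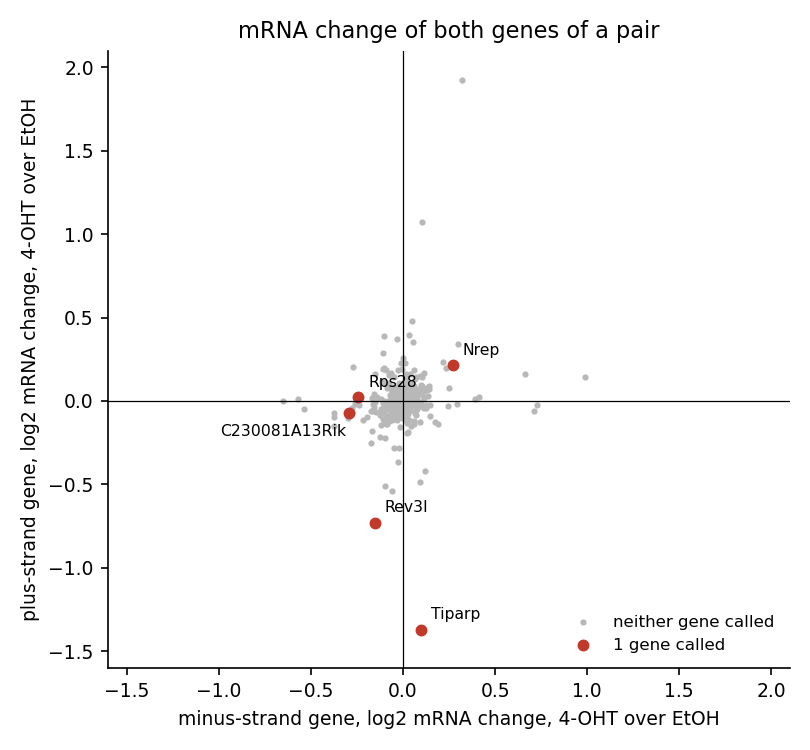
Log2 mRNA change, 4-OHT over EtOH, of the minus-strand gene (x axis) and the plus-strand gene (y axis) of the 309 pairs with both genes tested; red points are the 5 pairs with 1 called gene, labelled with its name. Tiparp (-1.37) and Rev3l (-0.73) lie far below 0 while their neighbours are at 0.10 and -0.15; Bhlhe40, Errfi1 and Plekhg3 are not drawn because their neighbours were not tested.

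Some partner genes fell in lists of mostly housekeeping groups, set mainly by patterns in their symbols. The lists were chosen in advance, and most of the 697 partner genes were in none of them. The counts therefore do not show which functions the partners have as a whole. Their counts are set beside the 93.8% of all regions called lower and the 2.44% of all genes called in mRNA. Most lie near those shares. The number of genes per group also depends on how many of its genes lie in any annotated bidirectional pair. Outside the clock list, the share of such genes with a BMAL1 region ran from 9.09% of 33 (respiratory chain) to 45.2% of 42 (RNA processing). Of all annotated pairs, 26.3% had a region, and the differences between groups were not tested. RNA processing had 19 partner genes, among them Hnrnpk, Ddx5 and Srsf2, with 24 regions of which 22 were called lower and no gene called in mRNA. RNA polymerases and general transcription factors had 11 genes, such as Polr3c and Gtf2h1, with 12 regions, all called lower, and the highest median EtOH signal of the groups after the clock genes (44.8 RP10M). DNA replication and repair had 10 genes, among them Mcm7, Atr and Pole, and 9 of 10 regions were called lower. Chaperones had 7 genes and 6 regions, all lower. Mitochondrial ribosomal proteins had 6 genes and 7 regions, all lower, cytosolic ribosomal proteins 5 genes with 4 of 5 regions lower, and the respiratory chain 3 genes and 3 regions, all lower. Proteasome and ubiquitin genes (6) had 6 of 7 regions lower, translation factors and tRNA synthetases (6) had 6 of 6, and zinc finger genes (8) had 6 of 6. Histone genes (4) had 1 of 3 regions called lower and a median log2 change of -0.81. Those regions had a median of 11.03 RP10M with EtOH, and 1 of them is the 35 bp Hist1h2ak/Hist1h2bn region. Rps28 was the only gene called lower in these groups and Bhlhe40 the only gene called higher. The patterns of the DNA replication and repair group left out Rev3l and Xpc. Rev3l mRNA was called lower, and the Xpc region was not called lower.

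Genes whose names follow the patterns of uncharacterised or noncoding genes were the largest group, a pattern that also took in Uros and Zbtb8os, with 112 of the 697 partner genes and 118 regions, of which 111 were called lower. Their median level was 1.11 FPKM with EtOH, and 87 could be tested, with C230081A13Rik the only call.

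Regions at the limits of the rule had means of 6.17 to 114.0 RP10M with EtOH, against quartiles of 14.6 and 47.7 RP10M over members. Just inside the limit on the distance between starts, Sgsm2/Tsr1 (1000 bp) had means of 4.72 RP10M with 4-OHT and 23.5 RP10M with EtOH, and A330009N23Rik/Grasp (979 bp) 4.11 RP10M with 4-OHT and 6.17 RP10M with EtOH. Just outside, Sp3/1700011J10Rik (1014 bp) had 3.75 RP10M with 4-OHT and 7.85 RP10M with EtOH, and Mll3/4831440E17Rik (1014 bp) 23.2 RP10M with 4-OHT and 114.0 RP10M with EtOH. For the distance to the farther start, Atp5f1/Wdr77 (965 bp) and the weaker Bhlhe40 region (954 bp) were just inside, with 5.32 and 6.65 RP10M with 4-OHT, against 14.4 and 16.04 RP10M with EtOH. Cnppd1/Fam134a (1003 bp) and Ino80e/Hirip3 (1006 bp) were just outside, with 6.29 and 4.72 RP10M with 4-OHT, against 12.1 and 13.3 RP10M with EtOH.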

How the data were processed

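The mRNA files hold whole-number read counts per gene, made by the authors with featureCounts 1.5.0-p1, reverse-stranded over exons of the UCSC mm10 annotation, per the file headers. The ChIP files hold deposited read counts of each library in 4740 regions, together with the peak caller's fold enrichment and −log10 q as deposited by the authors. The regions are named as MACS2 peaks of the EtOH control; the sources used here do not give whether replicates were pooled to call them. A deposited signal table, named RPKM, held reads per 10000000 library reads plus 5 in every region, and that relation gave the library totals. bedtools 2.25.0 is named in the submitters' processing notes.

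Counts were tested with edgeR 4.0.16 (quasi-likelihood, robust; library totals for ChIP, TMM and a filter on low counts for mRNA), in R 4.3.3, with Benjamini-Hochberg adjustment over all regions or genes at 0.05. SE is the log2 change divided by the square root of the F statistic. Alternatives used DESeq2 1.42.0, other scaling, inputs, rule limits and each library left out, and pair ratios used limma 3.58.1 on log2 CPM with a prior count of 2. Scripts were tested on simulated data. Sequence came only from RefSeq promoter windows of GRCm38.p6, so 278 of the 389 regions were covered in part and 74 in full; of the regions with some sequence, 110 held CACGTG in the covered part. Genes on several chromosomes or strands (133) were left out.

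Members and lists were chosen with earlier results of these data known. Named were the 10 strongest regions, the 5 largest and 5 smallest called falls above the median signal of all regions, every partner called in mRNA, clock and textbook pairs, the 3 strongest regions not called, and pairs at the limits of the rule.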

Additional observations from a re-analysis of the deposited data

How the results depend on the processing

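The count of 363 regions called lower was 301 to 340 with 1 library left out, 359 with a replicate block, 198 when the input change was subtracted (193 with summed inputs), 223 of 225 regions with a deposited −log10 q of at least 10, 19 with TMM factors (5 higher) and 14 with DESeq2's own size factors. The median log2 change (-1.62) was -1.81 to -1.53 with 1 library left out, 0.065 with TMM and 0.071 with DESeq2's own factors, both of which by construction put a typical region near 0. With TMM, 29 regions were above input with EtOH and 18 with 4-OHT. The difference from single promoters (0.03) was -0.052 to 0.063 with 1 library left out, and below 0 without EtOH replicate 2 (-0.01) or 4-OHT replicate 2 (-0.052). The median EtOH signal (23.9 RP10M) was 22.3 with starts at most 300 bp apart, 41.1 at a −log10 q of at least 10, and 105.1 per kb.

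TMM also gave log2 changes above 0 at Ccni/2010109A12Rik (0.59), Klhdc3/Mea1 (0.74), Ighmbp2/Mrpl21 (0.82), Man1a/Gm16998 (0.84), Ranbp1/Trmt2a (0.97), the Rev3l region farthest from its start (0.78), Rps28/Ndufa7 (0.30), both Nrep regions (0.12 and 0.034), Tiparp (0.58), Errfi1 (0.78), the weaker Bhlhe40 region (0.53), C230081A13Rik (0.29), the Tspan4 start (0.55), Gart/Son (0.38), Pcid2/Cul4a (1.09), Xpc/Lsm3 (1.02) and Sirt6/Ankrd24 (1.14). The 4 bp Rev3l region (0.10) was -0.094 with DESeq2 on library totals, -2.83 with input subtracted, -3.21 with summed inputs and -1.06 to 1.49 with 1 library left out. The cause was not tested.

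Partner genes called higher (2) were 4 without a filter on low counts, 1 with starts at most 300 bp apart, 1 for head-to-head pairs, 1 at the stricter q, and 1 to 8 with 1 library left out; those lower (6) were 3 with starts at most 300 bp apart and 4 to 6 with 1 library left out. Replicate numbers are not stated to pair libraries, and deviations of same-numbered libraries correlated at -0.35 in mRNA and 0.02 in ChIP. With the replicate block 2 partner genes were higher and 4 lower: the calls of Nrep, C230081A13Rik and Rps28 were lost, and Scand1 was called higher beside Bhlhe40. A crossed pairing, chosen after seeing the data, called 17 higher and 24 lower. These alternative counts cover partner genes alone. Shares of all tested genes under the same fits are not given here, so the counts are no result about partner genes.

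Regions not called had a median of 10.25 reads, and 2 libraries a group limit every test. E-box shares rest on the part of each region that promoter windows cover.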
